A study of Mus musculus with 48 samples.

Results

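Skin of C3H/HeJ mice treated with Janus kinase (JAK) inhibitors was compared directly with skin treated with an antibody at week 13, with no vehicle array in the comparison. The 9 arrays compared, of 48 in the series, were chosen by their titles: 3 named jak3i, 3 named jak12i and 3 named il15rb. The series concerns prevention of alopecia areata, an autoimmune hair loss of this strain, through inhibition of interleukin-15 (IL-15) signalling. From what is known of the study, jak3i is tofacitinib, which inhibits JAK3 and other JAKs, jak12i is ruxolitinib, which inhibits JAK1 and JAK2, and il15rb is an antibody to the beta chain of the IL-15 receptor. The labels give the 9 arrays the same strain and tissue and 12/13 as the weeks of treatment, and they give the antibody arrays the treatment IL15. They state no dose and no route for an agent. The 9 arrays given phosphate-buffered saline (PBS) at week 13, 3 each named for ip (intraperitoneal), pump and gavage, served as background only. If the antibody was given ip and the inhibitors by pump and gavage, as those vehicles were, agent and route cannot be told apart in these 9 arrays.

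IL-15 signals through a receptor that shares its beta chain with IL-2, and JAK1 and JAK3 bound to the receptor phosphorylate STAT5, which enters the nucleus and acts on target genes. An antibody to the beta chain stops this signal at the cell surface, whereas inhibitors of JAK kinases also act on the receptors for interferons, interleukin-4, interleukin-6 and growth hormone, all of which need a JAK. Type I interferon acts on its target genes through a DNA element, the interferon-stimulated response element (ISRE), and CD8 T cells with natural killer receptors are known to drive the attack on the hair follicle in alopecia areata.

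The promoters of 4 interferon-responsive genes and of the feedback inhibitor gene Socs3 are shown as examples that hold a motif match. Their transcripts had lower mean signals in inhibitor-treated skin, as described further on. Many genes of the type I interferon and STAT feedback lists hold no match, as the shares below show. Each is the run of 250 bases before the RefSeq start (build GRCm38.p6), 5′ to 3′ on the gene's strand. Capitals mark matches on either strand to the ISRE core, which is TTTC repeated after any 2 bases, or to TTCNNNGAA, the STAT motif.
Ifit1: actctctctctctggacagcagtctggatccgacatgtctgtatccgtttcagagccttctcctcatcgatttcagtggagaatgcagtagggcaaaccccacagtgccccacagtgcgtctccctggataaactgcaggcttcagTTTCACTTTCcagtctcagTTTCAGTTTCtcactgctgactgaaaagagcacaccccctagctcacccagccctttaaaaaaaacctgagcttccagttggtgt
Oas1a: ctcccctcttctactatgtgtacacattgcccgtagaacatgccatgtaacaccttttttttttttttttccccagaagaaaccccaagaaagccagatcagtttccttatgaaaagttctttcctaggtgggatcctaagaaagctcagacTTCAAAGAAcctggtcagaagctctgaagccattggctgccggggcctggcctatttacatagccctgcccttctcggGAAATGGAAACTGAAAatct
Ddx60: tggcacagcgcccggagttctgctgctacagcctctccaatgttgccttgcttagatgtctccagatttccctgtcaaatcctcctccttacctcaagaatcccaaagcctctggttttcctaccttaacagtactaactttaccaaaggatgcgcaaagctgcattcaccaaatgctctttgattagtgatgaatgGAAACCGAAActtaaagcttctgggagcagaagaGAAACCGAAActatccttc
Trim30d: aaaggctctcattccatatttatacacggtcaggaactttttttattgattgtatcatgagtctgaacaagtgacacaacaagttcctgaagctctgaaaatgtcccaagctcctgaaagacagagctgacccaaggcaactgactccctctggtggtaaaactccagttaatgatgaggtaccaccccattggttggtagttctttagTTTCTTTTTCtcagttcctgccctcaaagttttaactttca
Socs3: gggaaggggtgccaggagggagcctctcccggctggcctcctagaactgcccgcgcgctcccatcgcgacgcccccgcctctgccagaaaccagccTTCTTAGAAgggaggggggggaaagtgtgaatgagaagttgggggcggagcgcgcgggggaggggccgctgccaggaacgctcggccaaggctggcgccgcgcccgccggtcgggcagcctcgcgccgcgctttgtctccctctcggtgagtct
The windows lie at chr19:34640639-34640888 (plus strand) for Ifit1, chr5:120907526-120907775 (minus strand) for Oas1a, chr8:61927837-61928086 (plus strand) for Ddx60, chr7:104507850-104508099 (minus strand) for Trim30d and chr11:117969367-117969616 (minus strand) for Socs3. The Ifit1 matches began at -104 and -85 from the start, and those of Ddx60 at -53 and -19, all to the ISRE core. Oas1a held overlapping ISRE cores at -20 and -14 and a STAT match at -98. Trim30d had 1 ISRE core at -41, and Socs3 had 1 STAT match at -154. The ISRE core was in the window of 3.46% of the 27025 genes in the promoter table and of 3.07% of the 10907 of them tested here. Of 18 type I interferon genes with a window, 8 held it (44.4%), as did 8 of 14 interferon gamma genes (57.1%). The STAT motif was in 8.13% of all windows, in 3 of those 18 genes (16.7%), in 6 of the 14 (42.9%) and in 2 of 13 STAT feedback genes (15.4%). A match is a description of the letters and not a measured binding site.

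The values are log2 signals, in which a difference of 1 is a doubling, and 13648 genes were tested with limma. On the 9 arrays, both inhibitor groups together against the antibody gave no gene at a limma adjusted p under 0.05 (0% higher, 0% lower). At an unadjusted p under 0.05, limma had 389 genes higher with the inhibitors (2.85%) and 950 lower (6.96%), and the median difference of all genes was -0.02. The 6 inhibitor arrays lay wholly above the 3 antibody arrays for 172 genes (1.26%) and wholly below them for 470 (3.44%). With the spread taken from the 18 arrays of week 13, limma called 1 gene, Sntb2. With the spread taken from all 47 arrays that have a group, it called 25, of which 4 were higher (0.0293%) and 21 lower (0.154%). That fit pools weeks 5, 6 and 13, although the spread of array values differed by week. The 25th and 75th percentiles were 5.55 and 8.19 in week 6 jak3i replicate 1, and 5.33 and 8.75 in its week 13 counterpart. The 25 calls therefore rest also on the spread of arrays outside the comparison. A gene is said to have risen or fallen only where the 47-array fit called it. The main test, on all 9 arrays, called none of these genes. The differences and standard errors (SE) given are those of the 9-array fit. The p-values measure the spread between these arrays alone. The submitters speak of biological replicates, and no label names the animals. In skin RNA, fewer cells of a type and less RNA per cell cannot be told apart.

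Arrays of a group correlated at 0.975 to 0.978 for jak3i, 0.974 to 0.983 for jak12i and 0.961 to 0.987 for the antibody. In keeping with the label of skin, the mean log2 signal over 8 basal keratinocyte genes was 11.32 to 11.68 in the 9 arrays, and over 17 dermal matrix genes 11.21 to 12.45. The first principal component held 50.6% of the variance, and antibody replicate 2 (17.55) lay on it with the jak3i arrays (16.16 to 36.87). The other antibody arrays (-13.62 and -25.50) were negative on it, as were the jak12i arrays (-25.20 to -19.32). Results that rest on antibody replicate 2 are therefore given with and without it.

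Genes induced by type I interferon, which restrict viruses, had lower mean signals with the JAK inhibitors than with the antibody. Of 24 tested, 23 had a negative difference, against 57.9% of all genes, and 19 were lower in the mean with each inhibitor, against 38.4% of all genes. The median difference of the list was -0.55. By limma 15 of the 24 were lower at an unadjusted p under 0.05, against 6.96% of all genes, and the 47-array fit called 2 lower, Mx1 and Ifi27l2a, against 0.154%. Antibody replicate 2 had the highest list mean of the 9 arrays (9.0), and without it the median difference was -0.27, with 22 members negative and 6 at an unadjusted p under 0.05, where that fit had 977 of all genes (7.16%, either direction).

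Mx1, a GTPase that blocks viral replication, had log2 signals of 7.50, 8.36 and 7.82 in the antibody arrays. It had 6.93, 6.42 and 6.20 with jak3i and 6.40, 7.40 and 7.15 with jak12i. No inhibitor array reached the lowest antibody array. The difference was -1.14 ± 0.27 (limma SE), a 2.21-fold lower mean, and -0.91 without antibody replicate 2. Mx1 was not called in the 9-array limma fit (adjusted p = 0.368) and fell in the 47-array fit (adjusted p = 0.0273).

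The oligoadenylate synthetase genes, whose products sense double-stranded RNA, had the same order of groups. Oas1a read 9.38, 10.49 and 9.74 with the antibody, 8.69, 8.30 and 8.73 with jak3i and 8.63, 9.80 and 9.06 with jak12i. All 3 jak3i arrays lay below the antibody arrays, and 1 jak12i array lay among them. The difference was -1.0 ± 0.30 (limma adjusted p = 0.386, 47-array fit 0.134). Oasl2 read 7.04, 8.38 and 7.75 with the antibody, 5.54, 5.49 and 6.32 with jak3i and 6.25, 7.76 and 6.79 with jak12i, a difference of -1.36 ± 0.39. Its jak3i arrays lay below the antibody arrays, and the jak12i arrays overlapped them.

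Ifi27l2a, an interferon-induced gene, separated the inhibitors. It read 12.25, 12.67 and 12.37 with the antibody and 12.22, 12.53 and 12.01 with jak12i, but 10.77, 10.83 and 10.44 with jak3i. The jak3i arrays lay more than 1 log2 unit below every other treated array. Against the antibody the difference was -1.75 ± 0.17 for jak3i and -0.18 ± 0.17 for jak12i. For jak3i the limma adjusted p was 0.0506 in the 9-array fit, and Ifi27l2a fell in the 47-array fit (adjusted p = 0.00032). Between the inhibitors it was -1.58 ± 0.17 (limma adjusted p = 0.0585, 47-array fit 0.00157).

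Trim30d, of a family of interferon-induced TRIM proteins and not in the list of 24, read 6.28, 8.60 and 6.76 with the antibody, 5.05, 5.22 and 5.14 with jak3i and 5.49, 6.89 and 5.56 with jak12i. The jak3i arrays were the lowest, and the highest jak12i array lay among the antibody arrays. The jak3i values lay below 5.38, the highest 25th percentile of the week 13 arrays, where the size of a difference is uncertain. The difference was -1.66 ± 0.50, -0.97 without antibody replicate 2 and -1.01 with the mean of all probe sets. Trim30d fell in the 47-array limma fit (adjusted p = 0.0135, 9-array fit 0.386). Trim30, Oas and Ifit genes have near copies, and a probe set may read more than 1 of them.

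**Figure D1:**
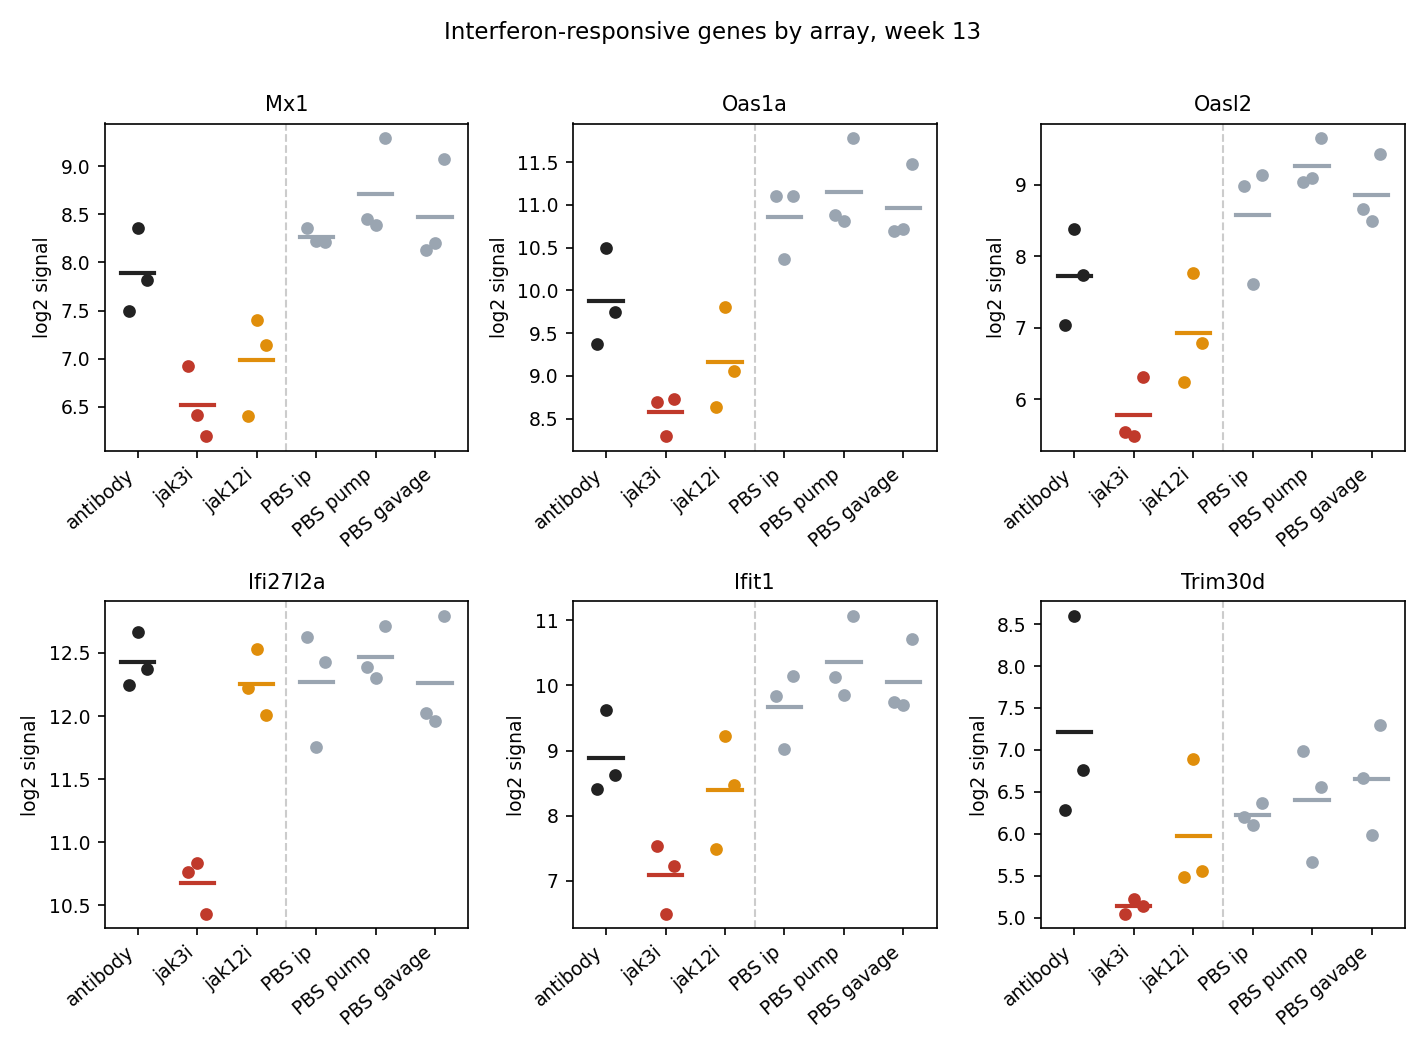
Log2 signal of 6 interferon-responsive genes in each array of week 13, with points for arrays (3 per group), short lines for group means and a dashed line between treated and PBS groups. For Mx1 the 6 inhibitor arrays (6.20 to 7.40) lie below the antibody arrays (7.50 to 8.36), and for Ifi27l2a the jak3i arrays (10.44 to 10.83) lie below both other treated groups.

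Each inhibitor was also set against the antibody alone, and both comparisons share the antibody arrays. Ifit1, whose product binds foreign RNA, differed by -1.80 ± 0.48 with jak3i and -0.50 ± 0.48 with jak12i. The transcription factor gene Irf7 differed by -1.05 ± 0.24 and -0.42 ± 0.24, and the RNA helicase gene Ddx60 by -1.19 ± 0.34 and -0.29 ± 0.34. The jak3i value was the more negative for these genes and for 23 of the 24 list members, Cmpk2 being the exception. Another Cmpk2 probe set differed by -0.93 for both inhibitors together, against 0.03 for that used. For Ddx60 the other probe set differed by only -0.17, against -0.74 for that used, and the mean of both gave -0.45. The median over the list was -0.91 for jak3i and -0.26 for jak12i. In the 47-array fit, Mx1, Ifi27l2a, Oas2, Oasl1 and Oasl2 fell with jak3i (limma adjusted p from 0.00032 to 0.021), against 0.249% of all genes. No member was called with jak12i, where only 10 of all genes were called lower (0.0733%). That absence alone does not set the inhibitors apart. Tested directly between the inhibitors in the 47-array limma fit, 1 of the 24, Ifi27l2a, was called lower with jak3i, against 0.572% of all genes. For Mx1 the 95% interval of jak3i minus jak12i was -1.18 to 0.24. In PBS arrays the list means were 8.73 to 9.93, against 7.42 to 9.0 in treated arrays.

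**Figure D2:**
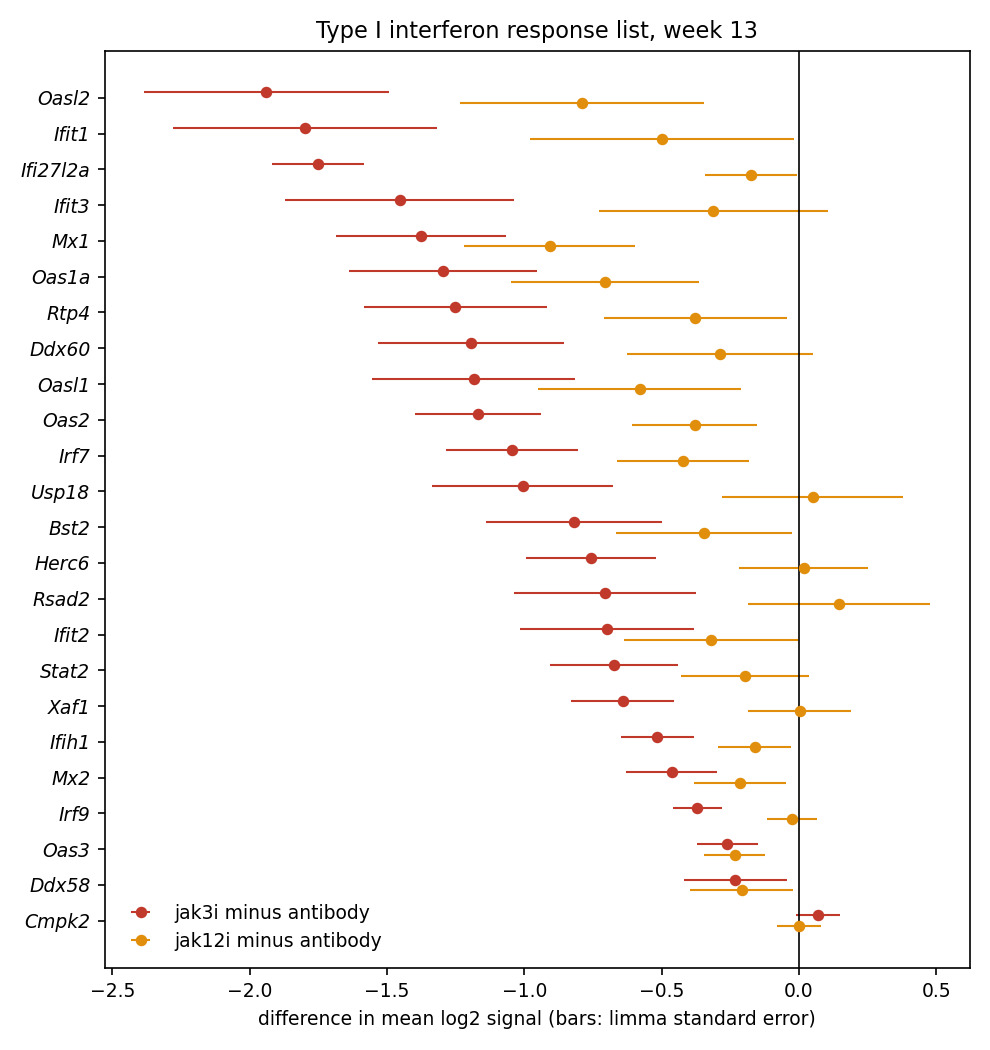
Difference in mean log2 signal from the antibody for each of the 24 tested genes of the type I interferon list, with jak3i in red, jak12i in orange and bars of 1 limma standard error. The jak3i points run from -1.94 (Oasl2) to 0.07 (Cmpk2) and lie left of the jak12i points for all genes but Cmpk2, each gene read by 1 probe set.

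Genes of the interferon gamma response had a median difference of -0.18 over 19, of which 15 were negative, against 57.9% of all genes, and 4 were lower with each inhibitor, against 38.4%. The median was -0.42 for jak3i, 0.10 for jak12i, and -0.02 for both without antibody replicate 2. The member of smallest p was Irgm1, a GTPase of pathogen defence, with 8.80, 9.15 and 8.88 in antibody arrays, 8.32, 7.78 and 8.40 with jak3i and 8.65, 9.16 and 8.86 with jak12i. The jak3i arrays lay below all the others. The difference for both inhibitors was -0.41 ± 0.17 (limma adjusted p = 0.477). Cxcl9, a T cell chemokine, read 7.82, 8.67 and 7.43 with the antibody, 7.92, 7.32 and 7.42 with jak3i and 7.05, 8.78 and 8.41 with jak12i. The groups overlapped, the difference was -0.16 (95% interval -1.06 to 0.75), and all 9 treated values lay below the PBS values of 11.28 to 13.08. All 12 MHC class I genes tested had a negative pooled difference (median -0.12), but only 1 was lower with each inhibitor. Their list mean was 10.15 to 10.37 with jak3i, 10.46 to 10.80 with jak12i and 10.54 to 10.58 with the antibody, so that the jak3i arrays lay below the antibody arrays and the jak12i arrays on both sides of them. The groups were apart for 1 of the 12, against 4.7% of all genes. It was the peptide trimming enzyme gene Erap1 (-0.20 ± 0.05, limma adjusted p = 0.386, and -0.35 with the mean of all probe sets).

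The receptor, JAK and STAT genes had a median difference of -0.15 over 15, with 12 negative (against 57.9% of all genes) and 5 lower at an unadjusted p under 0.05 by limma (against 6.96% of all genes). For 3 of them, Stat5a, Stat5b and Il4ra, the inhibitor arrays lay wholly below the antibody arrays (against 3.44% of all genes). Stat5a, a transcription factor activated by IL-15 and growth hormone, read 8.70, 8.94 and 8.93 with the antibody, 8.38, 8.30 and 8.0 with jak3i and 8.49, 8.36 and 8.39 with jak12i. Every antibody array lay above every inhibitor array and above the PBS arrays (8.01 to 8.56). The difference was -0.53 ± 0.10 (limma adjusted p = 0.269, 47-array fit 0.227). Stat5b differed by -0.17 ± 0.07 (-0.10 with the mean of all probe sets) and Il4ra, the interleukin-4 receptor alpha chain gene, by -0.46 ± 0.15.

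Il15ra, the gene of the chain that presents IL-15, read 9.12, 9.24 and 9.18 with the antibody, 8.81, 8.77 and 8.70 with jak3i and 9.12, 9.21 and 9.07 with jak12i. The jak3i arrays lay below all the others. The inhibitors differed by -0.38 ± 0.07 for Il15ra (limma adjusted p = 0.0953, 47-array fit 0.0772), and another probe set of the gene had the opposite sign for both inhibitors together (0.22, against -0.23), the mean of both giving -0.0044. Il15 itself differed by -0.15 (95% interval -0.35 to 0.06) and Il2rb, the gene of the chain the antibody binds, by 0.08 (95% interval -0.18 to 0.34). Jak1 differed by 0.03 (95% interval -0.12 to 0.17) and Jak2 by -0.11 (95% interval -0.26 to 0.04). Other Jak1 probe sets differed by -0.11 and 0.47. With the mean of all probe sets the difference was 0.13 for Jak1 and -0.02 for Jak2.

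STAT feedback genes, which STAT proteins switch on and many of which damp the signal, had a median of -0.06 over 19, beside -0.02 for all genes, and -0.01 without antibody replicate 2. By limma, 3 of them, the SOCS genes Socs2, Socs3 and Socs6, were lower at an unadjusted p under 0.05, against 6.96% of all genes. Socs2, an inhibitor of growth hormone signalling, read 10.60, 10.73 and 10.35 with the antibody, 9.73, 10.05 and 9.33 with jak3i and 9.81, 10.04 and 10.10 with jak12i. The groups did not overlap, and the PBS arrays ran from 9.65 to 10.06. The difference was -0.72 ± 0.16, a 1.64-fold lower mean (limma adjusted p = 0.352, 47-array fit 0.283). Socs6 differed by -0.41 ± 0.14, also without overlap, and by -0.16 with the mean of all probe sets. Socs3, which damps interleukin-6 signals, differed by -0.53 ± 0.22, with 10.23 to 10.87 in antibody arrays and 9.64 to 10.46 in inhibitor arrays, which overlapped. It was -0.31 with the mean of all probe sets and -0.33 without antibody replicate 3. Between jak3i and jak12i the 95% interval was -0.69 to 0.13 for Socs2, -0.33 to 0.40 for Socs6 and -0.45 to 0.08 for Stat5a.

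**Figure D3:**
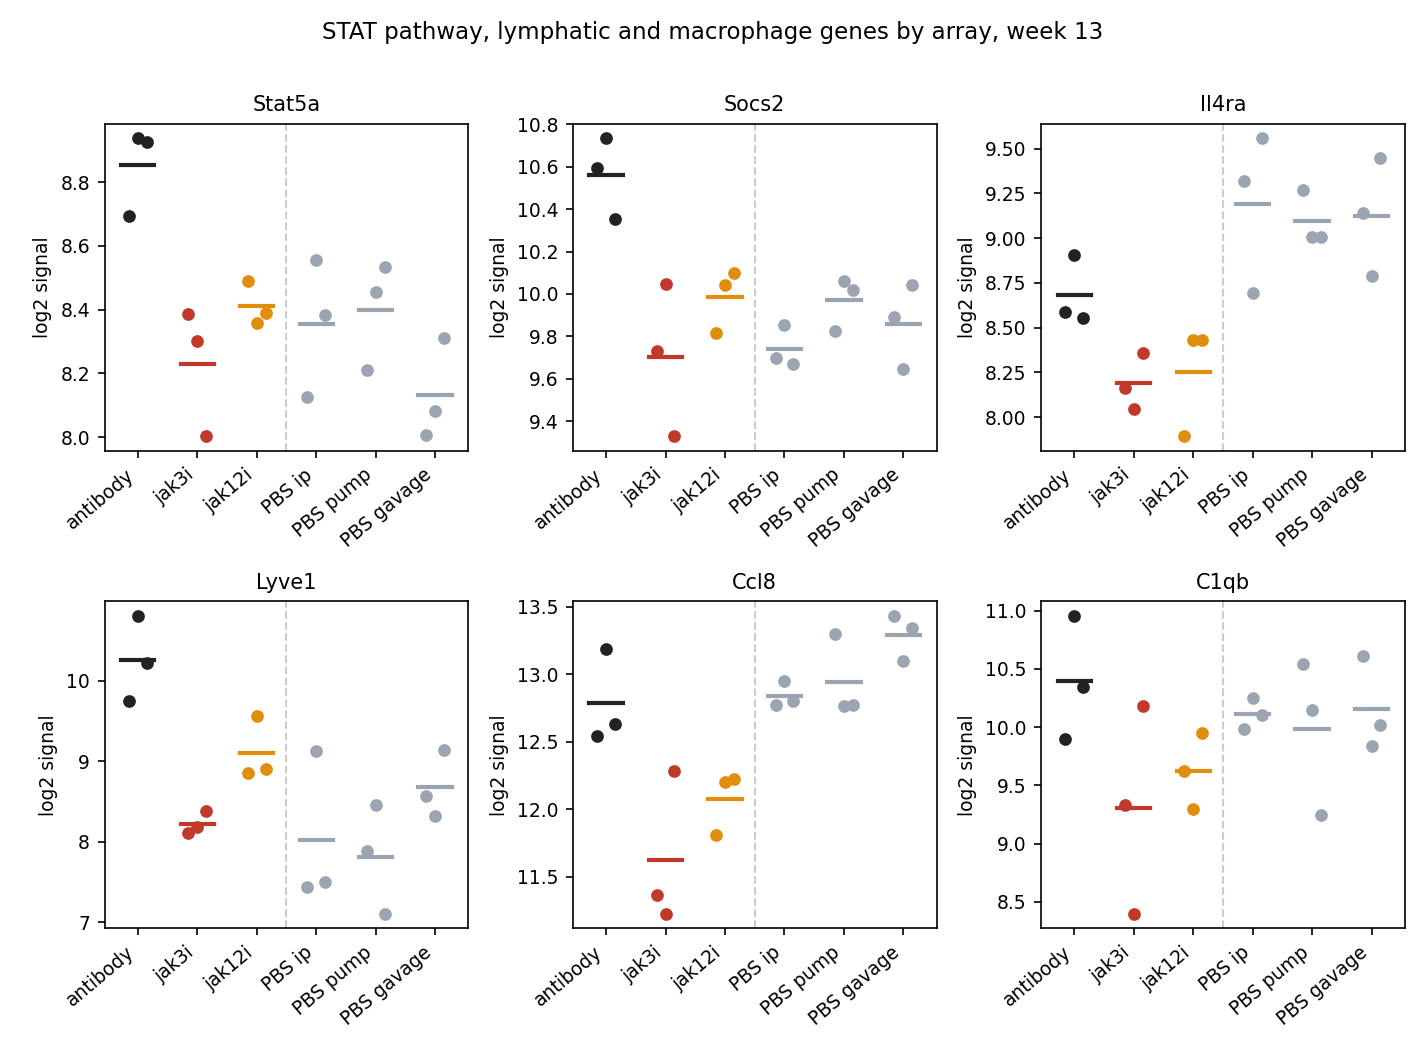
Log2 signal of 6 genes of STAT signalling, lymphatic vessels and macrophages in each array of week 13, with points for arrays (3 per group), short lines for group means and a dashed line between treated and PBS groups. For Stat5a, Socs2, Il4ra, Lyve1 and Ccl8 the 6 inhibitor arrays lie below the 3 antibody arrays, whereas those of C1qb overlap.

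Macrophage genes had lower mean signals with the inhibitors, which rested in part on antibody replicate 2. Of 16 tested, 15 had a negative difference, against 57.9% of all genes, with a median of -0.20, and 4 (Ccl8, C1qb, C1qc and Mrc1) were lower at an unadjusted p under 0.05 by limma, against 6.96% of all genes. Ccl8, a monocyte chemokine gene, read 12.54, 13.18 and 12.63 with the antibody, 11.36, 11.23 and 12.29 with jak3i and 11.81, 12.20 and 12.22 with jak12i. The groups did not overlap, and the difference was -0.93 ± 0.25 (limma adjusted p = 0.386). C1qb, the gene of a chain of complement C1q, read 9.90, 10.95 and 10.35 with the antibody, 9.33, 8.40 and 10.19 with jak3i and 9.63, 9.30 and 9.95 with jak12i, a difference of -0.93 ± 0.37. For C1qb, 1 array of each inhibitor lay among the antibody arrays. The chemokine genes Ccl6 and Ccl9 differed by -0.96 ± 0.34 and -1.03 ± 0.33, and by -0.58 and -0.66 without antibody replicate 2. The chemokine list, in which Ccl9 was lowest, had a median of 0.05, with 13 of 21 members positive and 8 negative. Ccl2 and Ccl7, also chemokine genes, differed by 0.34 and 0.11. Antibody replicate 2 had the highest macrophage list mean (10.35), and without it the median difference was -0.08, with 11 of 16 members negative and 1 at an unadjusted p under 0.05. That limma fit had 977 of all genes at such a p (7.16%, either direction), so the macrophage count was near the share of all genes.

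Lyve1, a hyaluronan receptor gene of lymphatic vessels that some tissue macrophages also express, read 9.74, 10.80 and 10.22 with the antibody, 8.10, 8.18 and 8.38 with jak3i and 8.86, 9.55 and 8.90 with jak12i. The antibody arrays were the highest of the 18 arrays of week 13, the PBS arrays running from 7.11 to 9.14. The difference was -1.59 ± 0.24, a 3.01-fold lower mean, and -1.32 without antibody replicate 2 (limma adjusted p = 0.195, 47-array fit 0.243). Some blood vessel genes of the same list had positive differences: Emcn differed by 0.45 ± 0.13, Kdr by 0.37 ± 0.14 and Pecam1 by 0.35 ± 0.16. Of the list, 7 of 9 members were positive, with a median of 0.23. Gas6, a ligand in the uptake of dying cells, read 12.02 to 12.40 with the antibody and 11.34 to 12.0 with the inhibitors, a difference of -0.65 ± 0.15 (limma adjusted p = 0.368).

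T cell and cytotoxic genes were low in all treated skin, and no member of either list was called between the inhibitors and the antibody. The mean over 12 cytotoxic genes was 6.08 to 6.38 with the antibody, 6.14 to 6.21 with jak3i and 6.32 to 6.74 with jak12i, while the PBS arrays ran from 7.73 to 9.06. No treated array reached a PBS array. Cd8a, the co-receptor gene of killer T cells, differed by 0.02 (95% interval -0.29 to 0.33), Gzmb, a killing protease gene, by -0.15 (95% interval -0.50 to 0.20) and Prf1, the pore protein gene, by 0.20 (95% interval -0.13 to 0.52). Zap70, a kinase gene of T cell receptor signalling, was the T cell gene of smallest p, at 0.25 ± 0.07 without overlap (limma adjusted p = 0.386). At an unadjusted p under 0.05, limma had 1 of 11 T cell genes and 2 of 12 cytotoxic genes higher with the inhibitors, against 2.85% of all genes, and none lower.

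Some lymphocyte genes differed between the inhibitors. Ctsw, a protease gene of killer cells, read 7.62, 7.56 and 7.84 with jak3i, 8.09, 8.86 and 9.01 with jak12i and 7.72, 8.04 and 7.57 with the antibody. Cd3g, a T cell receptor complex gene, read 7.64, 7.86 and 7.39 with jak3i, 8.35, 8.75 and 8.69 with jak12i and 7.89, 7.97 and 7.73 with the antibody. For both genes the jak12i arrays lay above all other treated arrays and below the PBS arrays (at least 9.49 for Ctsw and 9.09 for Cd3g). The difference of jak3i from jak12i was -0.98 ± 0.23 for Ctsw (limma adjusted p = 0.135, 47-array fit 0.0178) and -0.97 ± 0.15 for Cd3g (limma adjusted p = 0.0817, 47-array fit 0.0441). Nkg7, of cytotoxic granules, differed by -1.06 ± 0.20 and was called in neither fit (limma adjusted p = 0.0823, 47-array fit 0.0556).

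Hair shaft genes were far apart between the inhibitors. The mean of 12 hair shaft keratins was 9.01, 10.61 and 10.44 with jak3i, 6.78, 6.35 and 6.07 with jak12i and 6.77, 9.17 and 6.07 with the antibody. Antibody replicate 2 lay within the jak3i range, and the other antibody arrays lay near the jak12i arrays. The list's median difference from the antibody was 2.80 for jak3i, -0.95 for jak12i and 0.92 for both, and 1.85 for both without antibody replicate 2. Krt86, a keratin of the hair cortex, read 10.36, 11.17 and 11.88 with jak3i, 5.37, 5.31 and 4.64 with jak12i and 6.20, 9.77 and 4.94 with the antibody. The inhibitors differed by 6.03 ± 1.05 for Krt86 (limma adjusted p = 0.0817, 47-array fit 0.0387). In the 47-array limma fit 7 of the 12 keratins, 9 of 14 keratin associated proteins and 3 of 11 inner root sheath genes were higher with jak3i than with jak12i, against 101 of all genes (0.74%). The PBS arrays had hair shaft means of 7.28 to 11.22. With the hair shaft mean as a covariate, a fit chosen after seeing the data, the type I interferon median was -0.70 and the macrophage median -0.39. The hair shaft median was then 0.03, that of keratin associated proteins -0.07 and that of inner root sheath genes -0.17. Between the inhibitors, limma had 599 genes (4.39%) at an unadjusted p under 0.05 with the covariate and 1915 (14.0%) without. For jak3i against the antibody it had 973 (7.13%) with the covariate and 1702 (12.5%) without. Why these counts fell was not tested.

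**Figure D4:**
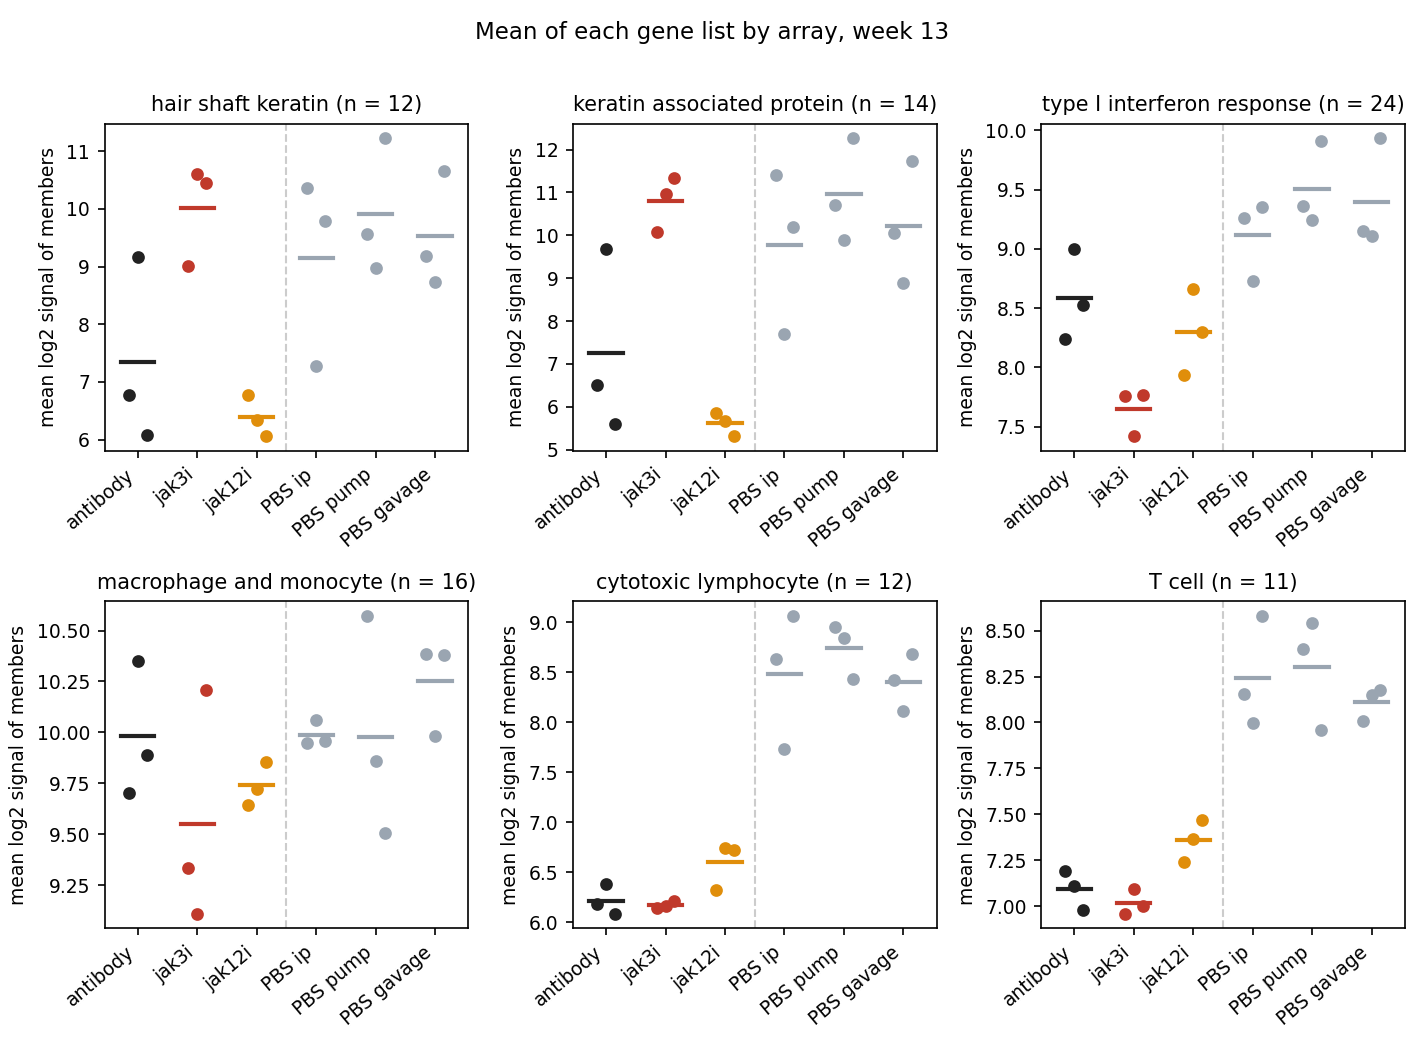
Mean log2 signal over the members of 6 gene lists in each array of week 13, with points for arrays (3 per group), short lines for group means and a dashed line between treated and PBS groups. The hair shaft list is high in jak3i and in antibody replicate 2 (9.17), and the cytotoxic list is lower in every treated array (6.08 to 6.74) than in the PBS arrays.

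The inhibitors form 1 pair, compared at the same week, with doses not stated. Directly compared, jak3i and jak12i gave no gene at a limma adjusted p under 0.05 in the 9-array fit, with 974 higher (7.14%) and 941 lower (6.89%) with jak3i at an unadjusted p under 0.05. The 47-array fit called 179, of which 101 were higher and 78 lower (0.572%). With the replicate number as a block the 9-array count was 1, Ifi27l2a (limma adjusted p = 0.0294). Cthrc1, a gene of a secreted matrix protein, read 8.49, 7.90 and 10.04 with jak3i, 6.21, 5.99 and 6.02 with jak12i and 6.36, 6.74 and 5.73 with the antibody. Every jak3i array was above all the others, and jak3i exceeded jak12i by 2.74 ± 0.49 (limma adjusted p = 0.0817, 47-array fit 0.00323). Retn, the gene of the fat hormone resistin, differed by -1.32 ± 0.26 (limma adjusted p = 0.0953, 47-array fit 0.0178).

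Set against the antibody alone, neither inhibitor gave a call in the 9-array limma fit. At an unadjusted p under 0.05, limma had 640 genes higher (4.69%) and 1062 lower (7.78%) for jak3i. For jak12i it had 440 higher (3.22%) and 860 lower (6.3%). The 47-array fit called 47 for jak3i (13 higher or 0.0953%, 34 lower or 0.249%) and 15 for jak12i (5 higher or 0.0366%, 10 lower or 0.0733%). Without antibody replicate 2 the 9-array jak3i count was 61, of which 55 were higher, and without jak3i replicate 1 it was 4.

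Among the 4 genes that rose with both inhibitors together, Sntb2, a scaffold gene of the dystrophin complex, read 7.88, 7.78 and 7.92 with the antibody, 8.79, 8.84 and 8.28 with jak3i and 8.63, 8.72 and 8.54 with jak12i. The groups did not overlap. The difference was 0.78 ± 0.13, with limma adjusted p of 0.195 in the 9-array fit, 0.0278 in the 18-array fit and 0.0135 in the 47-array fit. Sntb2 was also the 1 gene called between vehicle routes (0.00733% of genes), 0.81 ± 0.10 in PBS pump and gavage against PBS ip (limma adjusted p = 0.0176, 18 arrays), and the treated difference minus the vehicle difference was -0.03 ± 0.14. Another Sntb2 probe set had the opposite sign in the treated comparison, and with the mean of all its probe sets the difference was 0.35. Clec1a, a C-type lectin gene, rose by 0.74 ± 0.10 (47-array limma adjusted p = 0.0135), Arhgap32 by 0.63 ± 0.11 (0.00625) and Igf2r, a receptor gene of lysosomal enzyme transport, by 0.61 ± 0.11 (0.0409). Each had a limma adjusted p of 0.195 in the 9-array fit. The same genes differed between vehicle routes by 0.17 ± 0.13, 0.43 ± 0.13 and 0.31 ± 0.10. With the mean of all probe sets the treated difference was 0.36 for Clec1a and 0.21 for Arhgap32.

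Of the 21 genes that fell, Foxn2, a forkhead factor gene, read 9.99, 10.04 and 10.07 with the antibody, 9.39, 9.16 and 9.05 with jak3i and 9.37, 9.34 and 9.47 with jak12i. The groups did not overlap, and the difference was -0.73 ± 0.08 (limma adjusted p = 0.183, 47-array fit 0.0123), while another probe set of Foxn2 had the opposite sign (0.35) and the mean of both gave -0.19. Kcnab2, a potassium channel subunit gene, fell by 0.66 ± 0.11 (47-array limma adjusted p = 0.000524), Frmd4b, a scaffold gene, by 0.54 ± 0.09 (0.000524) and St3gal1, a sialyltransferase gene, by 0.72 ± 0.12 (0.0135). Each had a limma adjusted p of 0.195 in the 9-array fit. With the mean of all probe sets the differences were -0.36 for Kcnab2, -0.15 for Frmd4b and -0.36 for St3gal1. Prtn3, proteinase 3 of myeloid granules, read 8.19, 8.39 and 8.74 with the antibody, 6.47, 6.51 and 6.79 with jak3i and 6.80, 8.26 and 6.92 with jak12i. Replicate 2 of jak12i lay among the antibody arrays and the other inhibitor arrays below them. Prtn3 fell by 1.48 ± 0.30 (limma adjusted p = 0.325, 47-array fit 0.0135). Without jak12i replicate 2 it was called in the limma fit of the remaining treated arrays too (-1.71, adjusted p = 0.0441). Mup10, of a family of near-identical urinary proteins that probes may not tell apart, fell by 1.57 ± 0.50 (limma adjusted p = 0.416, 47-array fit 0.0409). Replicate 1 of jak12i (7.281) lay above its antibody mean (7.09). The other inhibitor arrays read at most 5.562 for Mup10, near the 5.38 below which the size of a difference is uncertain.

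The vehicle arrays gave the size of a difference between routes without drug. PBS pump and gavage against ip left 393 genes without overlap (2.88%), against 642 (4.7%) for the treated groups. Of the 642, 460 (71.7%) had the same sign in the vehicle arrays, as did 55.2% of all genes, and 29 were apart in the same direction there (4.52% of the 642 and 7.38% of the 393). Of the 25 genes called in the 47-array fit, 16 had the same sign. The treated difference differed from the vehicle difference for no gene in the 18-array limma fit, with 351 higher (2.57%) and 328 lower (2.4%) at an unadjusted p under 0.05. The 47-array fit called 1, C530044C16Rik (0.00733%). Without PBS ip replicate 2 limma called 107 genes between the routes and 11 in the test of the difference. The type I interferon median was 0.31 between the vehicle routes, opposite in sign to that of the treated arrays, and for Mx1 the treated difference minus the vehicle difference was -1.46 ± 0.40 (limma adjusted p = 0.944).

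**Figure D5:**
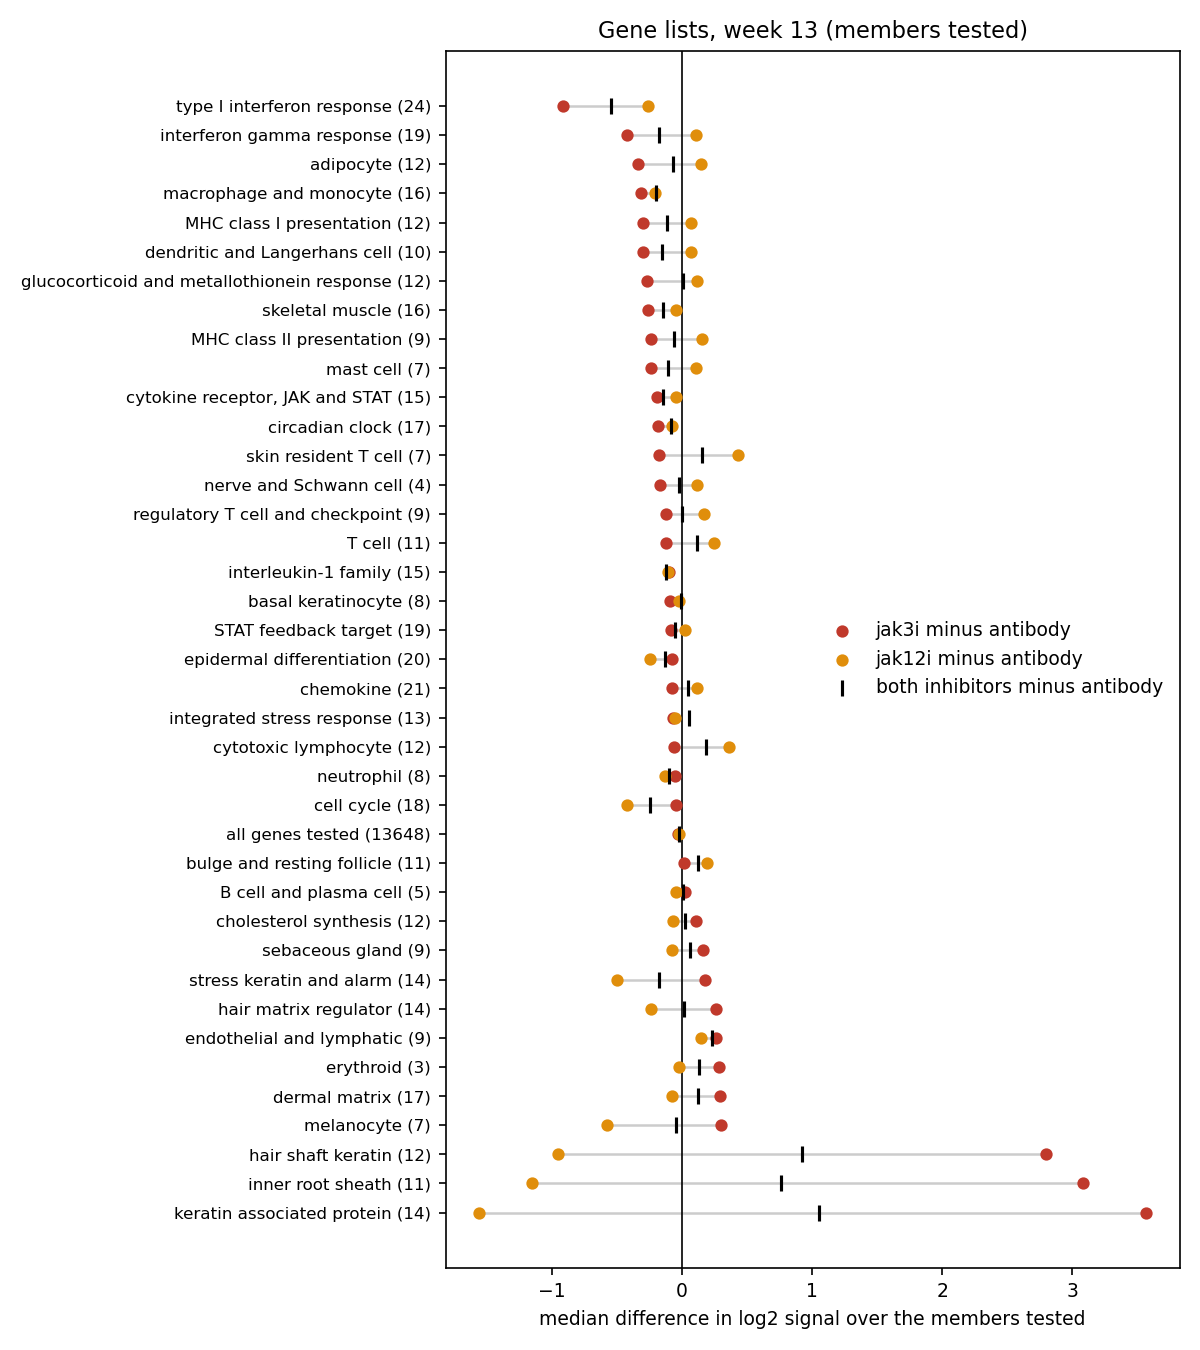
Median difference in log2 signal from the antibody over the tested members of each gene list (member numbers in brackets), with jak3i in red, jak12i in orange and both together as a black tick. The type I interferon list is the lowest for jak3i (-0.91), the hair lists hold the widest gaps between the inhibitors, and all genes tested sit at -0.02 for both together.

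Of the remaining lists, all 18 cell cycle genes were negative for both inhibitors together, against 57.9% of all genes, with a median of -0.25. The median was -0.05 for jak3i and -0.42 for jak12i, and 13 were lower with each inhibitor, against 38.4% of all genes. Without antibody replicate 2 the median for both together was -0.09, with 16 negative and 0 at an unadjusted p under 0.05 by limma. Aurka, a mitotic kinase gene, differed by -0.35 ± 0.12 without overlap, but another probe set had the opposite sign (0.05) and the mean of both gave -0.15. The glucocorticoid targets Fkbp5 and Zbtb16 differed by -0.99 ± 0.37 and -0.97 ± 0.39, while the median of their list was 0.01. Fkbp5 was -0.44 with the mean of all probe sets and -1.52 without antibody replicate 3. In the hair matrix list Bmp4, a growth factor gene, differed by 0.34 ± 0.08 without overlap (limma adjusted p = 0.352). The neutrophil chemokine gene Cxcl1 differed by 1.02 ± 0.46 (0.59 with the mean of all probe sets), and Eln, the elastin gene, by 0.70 ± 0.24. H2-Ob, a gene of MHC class II peptide loading, differed by -0.47 ± 0.10, with 7.27 to 7.41 for jak3i below all other treated arrays (7.88 and above). Skeletal muscle genes had list means of 11.95 to 13.11 in the 9 treated arrays and 7.19 to 12.28 in the PBS arrays, and their part in the results was not tested.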

How the data were processed

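Skin RNA (miRNeasy, with the 3' IVT Express Kit, per the labels' protocols) was measured on Affymetrix arrays. The deposited values are log2 signals made by the authors with RMA, per the submitters' processing notes, with no version given. The table holds 45101 probe sets in 48 arrays, of which 47 have a group. GEO's platform annotation gave 34958 probe sets 1 gene symbol, 932 several and 9211 none. The probe set of highest mean stood for a gene with more than 1 (9012 of 18194 genes), and of 75 genes examined in detail 12 had another probe set of opposite sign. Genes above the table's median (6.70) in at least 3 of the 47 arrays were tested (13648).

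Groups came from the titles. The main test was limma (version 3.58.1, R 4.3.3) on the 9 arrays with 1 mean per group, the mean of both inhibitor groups minus the antibody mean, with Benjamini-Hochberg adjustment over all genes tested. The vehicle routes and the difference of differences were fitted on the 18 arrays of week 13. The number of arrays limits the precision. The code was tested on simulated data. Each list is described by its counts and median.

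The arrays of the same replicate number, taken from the titles, deviated together for jak3i and jak12i (correlations of deviations from the group means 0.225, 0.257 and 0.12), so the blocked count is given for that pair. For jak3i and the antibody they were 0.312, 0.299 and -0.19, and for jak12i and the antibody -0.0919, 0.259 and 0.0382, so those groups were not taken as paired. The labels do not say what a number stands for.

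Alternatives were the arrays in the fit, normalization, filter, probe set, variance model, 1 mean for both inhibitors, the replicate block and leaving out each array. The hair shaft covariate was added after seeing the data. The members and gene lists were chosen with earlier results of these data known. The rule for naming genes took a panel, the members with the smallest p of each list (at most 4) and the 15 genes of smallest p in each direction. Genes named because the 47-array fit called them, or for their difference between the inhibitors, were chosen after their values were seen.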

Additional observations from a re-analysis of the deposited data

Results flagged for a closer look

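Among the 6 inhibitor arrays, 113 genes and list means were examined for an array far from the others (gap over range above 0.625), and 5 were found, where chance gives about 1 in 20 groups. Replicate 2 of jak12i was high for Trim30d (6.891) and Prtn3 (8.264). Replicate 1 of jak12i was high for Mup10 (7.281). Replicate 3 of jak3i was high for Emcn (9.458), and replicate 1 of jak3i for the sebaceous gland list mean (11.406).

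For 5 lists every jak3i array lay on one side of the antibody mean and every jak12i array on the other, and the difference of the list means was not tested. With antibody replicate 2 left out, this split held only for the keratin associated protein list and the regulatory T cell and checkpoint list. For the hair shaft list, jak12i replicate 1 (6.777) then lay above both remaining antibody arrays (6.769 and 6.073). For the stress keratin and alarm list, the antibody arrays themselves ran from 7.841 to 9.951. The jak3i mean minus the jak12i mean was 3.622 for the hair shaft keratin list, 5.172 for the keratin associated protein list, 0.909 for the stress keratin and alarm list, 0.581 for the dermal matrix list and -0.304 for the regulatory T cell and checkpoint list.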

How the results depend on the processing

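The limits are 3 arrays per group, an antibody array (replicate 2) that stood apart, and no calls in the 9-array limma fit. With 18 arrays in the fit, limma called 1 gene for both inhibitors against the antibody. With 47 arrays it called 25 there, 47 for jak3i, 15 for jak12i, 179 between the inhibitors, 8 between the vehicle routes and 1 in the difference of differences. For jak3i against the antibody, where the 9-array count was 0, it was 2 with array medians subtracted, 1 without a filter, 1 with the filter over the 9 arrays, 2 with the mean of all probe sets, 3 with an eBayes trend and 2 with array weights. Between the inhibitors it was 4 with the mean of all probe sets and 124 with array weights. With the replicate block it was 1 for jak3i against the antibody (Ifi27l2a, limma adjusted p = 0.0147), 1 between the inhibitors and 0 between the vehicle routes, and the block changed no other count.

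Leaving out 1 array at a time gave 0 to 1 calls for both inhibitors, 0 to 61 for jak3i, 0 for jak12i, 0 to 3 between the inhibitors, 0 to 107 between the vehicle routes and 0 to 11 in the difference of differences. The single calls for both inhibitors were Sntb2 without jak3i replicate 3 and Prtn3 without jak12i replicate 2. The medians of the 15 lists followed moved by less than 1 SD of the arrays under each of the 21 alternatives, 315 list values in all. Among the gene values 13 changed sign, none of them called. The Cd8a difference was -0.0214 with the mean of all probe sets, -0.1165 with array weights and -0.1004 to 0.1635 leaving out 1 array. Cxcl9 was 0.0092 with array weights and -0.4302 to 0.1904 leaving out 1. With the hair shaft covariate Krt31 was -0.10 and Krt86 -0.0167. Leaving out 1 array gave -9e-04 to 0.0643 for Jak1, -0.3196 to 0.0661 for Gzmb and -0.0047 to 0.1495 for Ifng. The Ifng means (4.64 with the inhibitors, 4.58 with the antibody) lay below 5.38, the highest 25th percentile of the week 13 arrays. Where no alternative's own construction shows it, the cause was not tested. Over all the fits run, the limma adjusted p of both inhibitors against the antibody ran from 0.0273 to 0.672 for Mx1, 0.0409 to 0.619 for Ifi27l2a, 0.0135 to 0.688 for Trim30d, 0.0135 to 0.566 for Prtn3, 0.0135 to 0.525 for Sntb2, 0.0123 to 0.497 for Foxn2, 0.0135 to 0.48 for Clec1a, 0.00625 to 0.531 for Arhgap32, 0.0409 to 0.557 for Igf2r, 0.000524 to 0.557 for Kcnab2, 0.000524 to 0.531 for Frmd4b, 0.0135 to 0.531 for St3gal1 and 0.0409 to 0.659 for Mup10.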
